A study of Mus musculus with 5 samples.

Results

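The acinar genes of the exocrine pancreas were followed in sorted pools of pancreatic islet cells. The set was a list of 10 genes: 7 enzymes made by acinar cells (Cela3b, Cela1, Ctrb1, Cpa1, Cpb1, Pnlip and Cel) and 3 transcription factors of these cells (Ptf1a, Rbpjl and Bhlha15). They were found by gene symbol among probe sets annotated to a single gene, and where a gene had several probe sets the brightest over the 5 arrays was taken. In this way 9 of the 10 were measured, out of 19938 genes in all; Pnlip was not analysed here. The study sorted cells by flow cytometry into Flattop-positive pools (3 arrays) and Flattop-negative pools (2 arrays). Both groups came from untreated C57BL/6 mice of 8 to 12 weeks that were heterozygous for Flattop (FVR/+), so the control fraction carried the modified allele too. Each pool held islet cells of 4 to 6 mice whose sex had not been determined. The labels do not say whether pools shared mice, so p-values measure the spread between these pools.

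Acinar cells make the digestive enzymes of the pancreas, store them as zymogens in granules and release them into ducts. Islets are embedded in this tissue, and acinar cells are the most abundant cells of the pancreas, so acinar transcripts are commonly looked for in islet preparations. The trimeric factor PTF1 drives the enzyme genes: it holds the basic helix-loop-helix protein Ptf1a, a common E-protein partner and Rbpjl, the acinar relative of the Notch effector Rbpj. PTF1 reads a double site made of an E-box and a TC-box. Bhlha15, also called Mist1, is another basic helix-loop-helix factor, which builds the secretory apparatus of acinar and other serous secretory cells.

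The sequences below are the 250 bases before the RefSeq start of 4 of these genes (GRCm38.p6), 5′ to 3′ on the gene's strand. Ctrb1, Cela1 and Cpa1 are 3 of the 5 genes of the set whose signals were highest on Flattop-negative replicate 2. Rbpjl and Cel were also highest there and are not shown. Bhlha15 is shown because its signal was lowest there. Capitals mark the E-box CANNTG and the TC-box TTTCCC or its complement GGGAAA. Ctrb1 lies at chr8:111691011-111691260 (minus strand), Cela1 at chr15:100687921-100688170 (minus strand), Cpa1 at chr6:30638968-30639217 (plus strand) and Bhlha15 at chr5:144190036-144190285 (plus strand).
Ctrb1: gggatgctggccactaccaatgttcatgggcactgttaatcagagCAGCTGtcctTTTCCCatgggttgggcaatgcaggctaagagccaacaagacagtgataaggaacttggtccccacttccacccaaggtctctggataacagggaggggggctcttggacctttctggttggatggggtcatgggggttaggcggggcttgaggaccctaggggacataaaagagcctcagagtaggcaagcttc
Cela1: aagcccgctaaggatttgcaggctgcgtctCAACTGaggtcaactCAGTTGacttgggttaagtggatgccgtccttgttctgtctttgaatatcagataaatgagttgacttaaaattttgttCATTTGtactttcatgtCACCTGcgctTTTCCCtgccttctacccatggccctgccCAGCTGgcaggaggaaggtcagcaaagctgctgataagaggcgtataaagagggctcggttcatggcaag
Cpa1: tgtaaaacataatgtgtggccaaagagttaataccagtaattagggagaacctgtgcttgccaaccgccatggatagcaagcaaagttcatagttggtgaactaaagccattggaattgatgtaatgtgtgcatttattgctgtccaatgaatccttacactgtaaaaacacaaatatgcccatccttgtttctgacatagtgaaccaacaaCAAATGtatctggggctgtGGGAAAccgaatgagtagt
Bhlha15: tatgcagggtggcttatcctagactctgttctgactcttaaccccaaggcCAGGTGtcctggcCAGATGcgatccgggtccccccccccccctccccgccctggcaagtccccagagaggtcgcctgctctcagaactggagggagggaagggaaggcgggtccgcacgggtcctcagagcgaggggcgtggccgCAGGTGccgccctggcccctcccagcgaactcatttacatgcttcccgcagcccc
In Ctrb1 and Cela1 the E-box and the TC-box stood 4 bases apart, as CAGCTGtcctTTTCCC from 205 to 190 bases before the start of Ctrb1 and as CACCTGcgctTTTCCC from 109 to 94 bases before that of Cela1. In Cpa1 they stood 13 bases apart and in Cel 15 bases apart, the latter as GGGAAAaaatggaccatcccaCACCTG. The stretch shown for Bhlha15 held 3 E-boxes and 0 TC-boxes, and that of Rbpjl, not shown, held 2 E-boxes and 0 TC-boxes. All 10 genes had a promoter in the RefSeq table. Of these, 8 held an E-box, 4 a TC-box and 4 both with a gap of at most 25 bases, in either order and on either strand, without overlap. Among all 32817 promoters of that length, 66.2% held an E-box, 21.9% a TC-box and 4.6% such a pair. These matches describe letters in the window and are not measured binding sites.

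Signals are log2 values in which an unexpressed gene does not read 0. The floor of each array was taken from 1027 olfactory receptor genes, which islet cells are not known to use. Their 95th percentile, called the floor here, was 4.29, 4.44 and 4.45 on Flattop-positive replicates 1, 2 and 3, and 4.75 and 4.86 on Flattop-negative replicates 1 and 2. The floor itself thus lay higher on both negative arrays, and the olfactory receptor genes had a median log2 difference of -0.27 (Flattop-positive minus Flattop-negative, as for all differences here), against -0.10 over all genes. Differences of genes near the floor are read against these shifts. Between 57.2% and 63.1% of all genes exceeded the floor, depending on the array. The labelled cell type was checked on 16 measured endocrine genes: all exceeded the floor on 4 arrays and 15 did on Flattop-negative replicate 1, where Mafa did not. Ins2, Iapp and Gcg were at 12.37 or more on every array. The list was not even: 14 of the 16 lay higher in the positive arrays, against 40.8% of all genes and 7278 of 12261 with a mean above the floor. Their median difference was 0.79, against 0.13 over those 12261 genes. Without Flattop-negative replicate 1 it was 0.23, with 10 of 16 higher, and without replicate 2 it was 0.93, with 14 higher. On Flattop-negative replicate 1 Sst was at 8.08 against 12.32 to 13.19 elsewhere and Ppy at 8.98 against 12.44 to 13.63. Cfap126, the Flattop gene, was at 6.07, 6.07 and 6.24 on the positive and at 5.52 and 5.44 on the negative arrays. Flattop-negative replicates 1 and 2 were less alike over all genes (r = 0.846, across genes) than any of the other 9 pairs of arrays.

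The 6 measured enzymes of the set were at or near the floor in every pool but Flattop-negative replicate 2, with Cela3b on replicate 1 of that group as the exception. On replicate 2, chymotrypsinogen (Ctrb1) and procarboxypeptidase A1 (Cpa1) reached 6.86 and 6.53, while Cpb1 and Cel stayed below the floor. Some enzymes outside the set, Cela2a and Ctrl among them, exceeded the floor on all 5 arrays. Of the 9 measured genes, 2, 6 and 4 exceeded the floor on Flattop-positive replicates 1, 2 and 3, and 3 and 6 on Flattop-negative replicates 1 and 2. Most of these crossings were small: on the 3 positive arrays no gene other than Bhlha15 lay more than 0.33 log2 units above the floor. At the 99th percentile of the olfactory receptor genes, a stricter floor, 1 gene remained on each positive array, and 2 were counted on each negative array. Fewer acinar cells and less enzyme RNA per cell cannot be told apart in such pools.

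**Figure D1:**
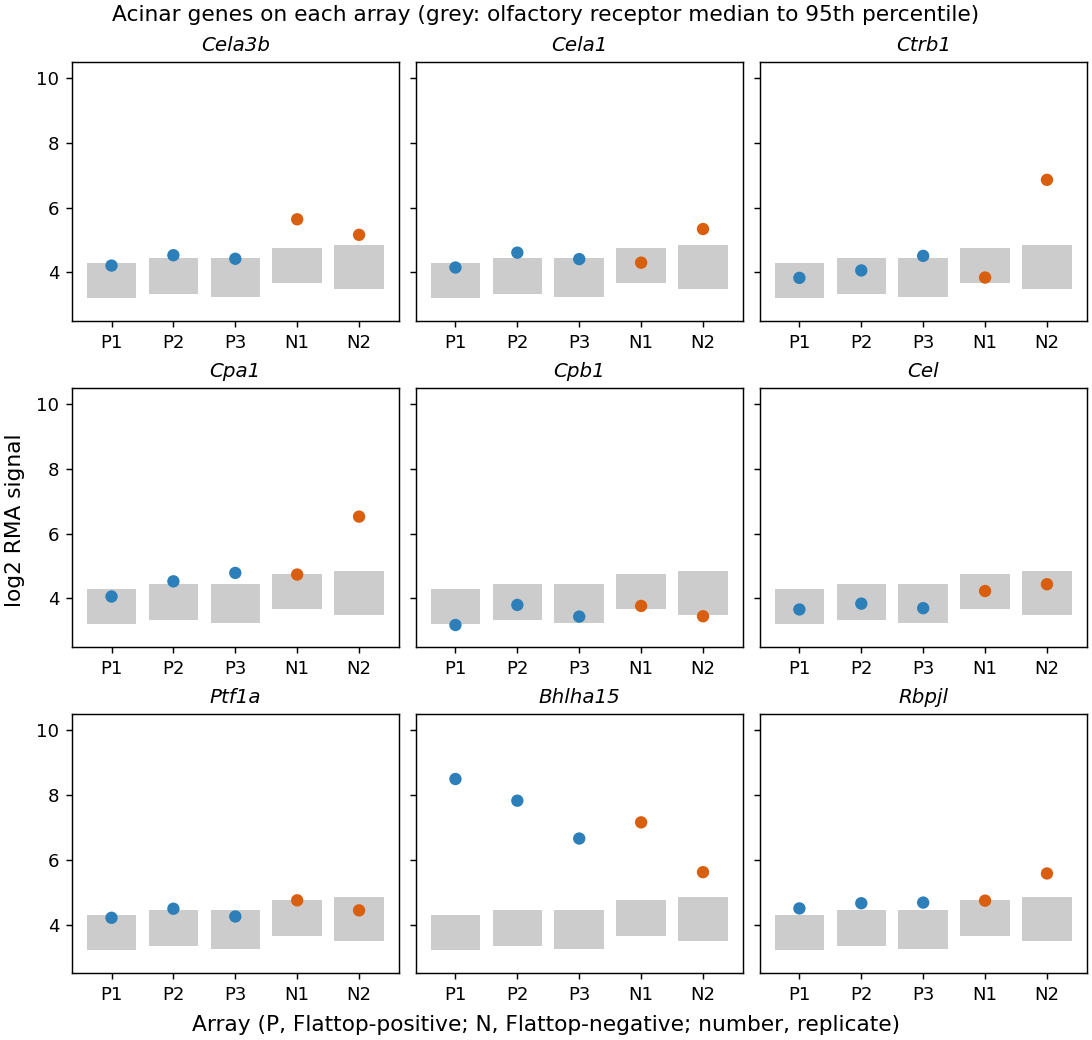
Log2 RMA signal (vertical axis) of the 9 measured acinar genes on each of the 5 arrays (horizontal axis; P1 to P3, Flattop-positive, blue; N1 and N2, Flattop-negative, orange). Each point is 1 array, and grey boxes run from the median to the 95th percentile of 1027 olfactory receptor genes; Ctrb1 and Cpa1 stand clear of the box on N2 at 6.86 and 6.53, and Bhlha15 stands above it on all 5 arrays.

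Ctrb1, the precursor of the protease chymotrypsin, was at 3.83, 4.06 and 4.51 on the positive arrays and at 3.84 and 6.86 on the negative arrays. The other 4 arrays were at the floor, so Flattop-negative replicate 2 was at least 4.34-fold higher than each of them, counting each at its floor or at its own value if that was higher, while replicate 1 of the same group lay inside the range of the positive arrays. On replicate 2 only 1 of the 1027 olfactory receptor genes was as bright, against 368 on replicate 1.

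Cpa1, which trims amino acids from the carboxyl end of proteins, was at 4.06, 4.53 and 4.79 on the positive arrays and at 4.74 and 6.53 on the negative arrays. The groups overlapped, and again Flattop-negative replicate 2 stood apart, by 3.34-fold or more in deposited signals on the same reckoning. Measured from the floor of each array, Cpa1 lay 1.67 log2 units above it on replicate 2 and at most 0.33 above it elsewhere. Cela1, an elastase, was at 4.15, 4.61 and 4.41 against 4.30 and 5.34. Its lead on replicate 2 was smaller, 0.73 log2 units in deposited signals, and its other 4 values lay within 0.45 log2 units of the floor on their arrays. Cela1 lay 0.48 log2 units above the floor of replicate 2 and at most 0.17 above that of any other array.

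Cela3b, another elastase of the pancreas, had a different order. It was at 4.21, 4.53 and 4.42 on the positive arrays and at 5.64 and 5.16 on the negative arrays, so the groups did not overlap and the highest value was on Flattop-negative replicate 1. That value exceeded 99.2% of the olfactory receptor genes. Its close paralog Cela3a, a gene outside the set, was also highest there, at 4.59 against 3.40 to 3.94 elsewhere, but below the floor on all 5 arrays. Whether the probes separate these paralogs fully was not tested.

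The remaining enzymes stayed below the floor, as set by the olfactory receptor genes, on every array. Cpb1, procarboxypeptidase B1, was at 3.18, 3.80 and 3.44 on the positive arrays and at 3.77 and 3.45 on the negative arrays, between the 45.3 and 79.0 percentile of the olfactory receptor genes. Cel, the bile salt-dependent lipase, was at 3.66, 3.84 and 3.70 against 4.23 and 4.44, below the floor on all 5 arrays. The groups did not overlap for Cel, but its position among the olfactory receptor genes moved less, from 77.0 to 80.8% on the positive arrays to 82.9 and 89.6% on the negative arrays. No fold is given for Cpb1 or Cel.

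Of the factors, Ptf1a, the DNA-binding subunit that defines PTF1, stayed at the floor. It was at 4.21, 4.49 and 4.25 on the positive arrays and at 4.75 and 4.44 on the negative arrays, never more than 0.06 log2 units above the floor. The array with the highest Ctrb1 and Cpa1 had Ptf1a 0.42 log2 units below the floor. Rbpjl was at 4.50, 4.66 and 4.68 against 4.74 and 5.58. It exceeded the floor on 4 arrays, by at most 0.23 log2 units on the positive ones and by 0.72 on Flattop-negative replicate 2, where it led the next array by 0.84.

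Bhlha15 was the only acinar gene of the set above the floor on all 5 arrays. It was at 8.50, 7.83 and 6.66 on the positive arrays and at 7.16 and 5.62 on the negative arrays. The groups overlapped, since Flattop-positive replicate 3 lay below Flattop-negative replicate 1. From the highest to the lowest array the signal differed 7.36-fold. The lowest was Flattop-negative replicate 2, where Ctrb1, Cpa1, Cela1, Rbpjl and Cel were highest. All 8 other measured acinar genes were lowest on Flattop-positive replicate 1, where Bhlha15 was highest; the median of the olfactory receptor genes was also lowest there, at 3.22 against 3.24 to 3.66. Set against that median, Cela1, Ctrb1 and Rbpjl were lowest on Flattop-negative replicate 1 instead, 0.64, 0.18 and 1.08 log2 units above it. Ptf1a was then lowest on Flattop-negative replicate 2, at 0.95. Cpb1 was about as low there as on Flattop-positive replicate 1, at -0.04 on both.

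No acinar gene passed the test between the groups. With limma, 0 of 9 had an adjusted p under 0.05, as for all genes (0%), and 2 had an unadjusted p under 0.05, Cela3b and Cel, both lower in the positive arrays, against 5.37% of all genes in that direction (13.8% in both). Differences were below 0 for 8 of 9 genes, against 59.2% of all genes and 937 of the 1027 olfactory receptor genes, and above 0 for 1, Bhlha15, against 40.8% of all genes. As deposited, the share of 8 of 9 is close to that of the floor genes and is not particular to the acinar genes. With arrays centred on the olfactory receptor median, 6 of 9 lay below 0, against 5737 of 19938 genes and 458 of the 1027 olfactory receptor genes. Whether 6 of 9 differs from these shares was not tested. The median difference was -0.55, and -0.81 for the 6 enzymes. All 6 lay lower in the positive arrays as deposited, and 5 did when quantile normalisation was repeated, after cyclic loess and with arrays centred on either median, since Cpb1 then lay higher. Without Flattop-negative replicate 2, 4 of the 6 lay lower, with a median of -0.29. Groups did not overlap for Cela3b, Cel and Rbpjl, all lower in the positive arrays, against 21% of all genes and 432 of the 1027 olfactory receptor genes, and 0 of the 9 lay higher without overlap, against 13.7% of all genes.

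Cela3b had the smallest p of the set (limma, unadjusted p = 0.00601). Its mean was 4.39 ± 0.16 (SD, n = 3) in the positive and 5.40 ± 0.34 (SD, n = 2) in the negative arrays. The difference was -1.02 (95% interval -1.60 to -0.43; limma adjusted p = 0.236). Leaving out Flattop-negative replicate 1 gave -0.77 and leaving out replicate 2 gave -1.26. With arrays centred on the olfactory receptor median the difference was -0.71, the smallest in size over the 14 alternatives to the fit. Since the positive arrays lie within 0.09 log2 units of the floor, the size of this difference is uncertain.

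For Ctrb1 the means were 4.13 ± 0.35 (SD, n = 3) and 5.35 ± 2.14 (SD, n = 2), with a difference of -1.22 (95% interval -3.39 to 0.95; limma adjusted p = 0.539). Ctrb1 was below the floor on 3 arrays and 0.06 log2 units above it on Flattop-positive replicate 3, so the size of this difference is uncertain. Without Flattop-negative replicate 2 it was 0.30, between values at the floor that have no order, and without replicate 1 it was -2.73. Cpa1 differed by -1.17 (95% interval -2.57 to 0.22; limma adjusted p = 0.411), by -0.28 without replicate 2 and by -2.07 without replicate 1. The Cela1 difference of -0.43 likewise became 0.09 without replicate 2 and -0.95 without replicate 1, and that of Rbpjl, -0.55, became -0.13 and -0.97. For these 4 genes a single array of the 2 in its group thus set the size, and the values left without it lay at most 0.33 log2 units above the floor.

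Bhlha15 had means of 7.66 ± 0.93 (SD, n = 3) and 6.39 ± 1.09 (SD, n = 2). The difference of 1.27, or 2.41-fold, did not pass (95% interval -0.44 to 2.98; limma adjusted p = 0.453). Leaving out Flattop-negative replicate 2 gave 0.50 and leaving out replicate 1 gave 2.04. Ptf1a differed by -0.28 (95% interval -0.81 to 0.25; limma adjusted p = 0.558), close to the -0.27 of the olfactory receptor genes, and by 0.02 once arrays were centred on the median of those genes. Under the same centring, Cpb1 turned from -0.14 to 0.16.

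**Figure D2:**
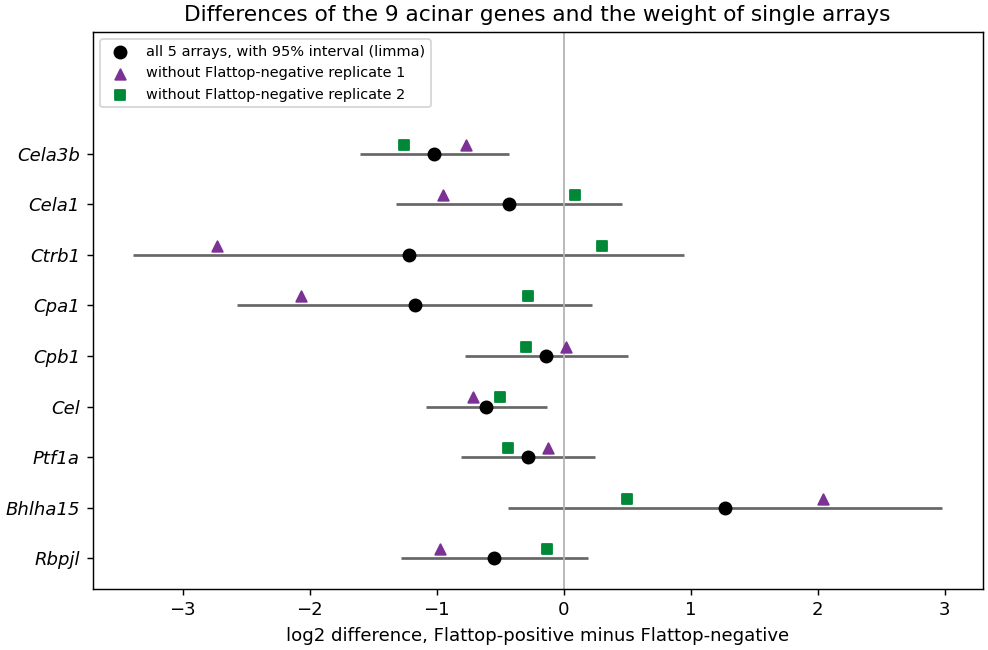
Log2 difference, Flattop-positive minus Flattop-negative (horizontal axis), for each of the 9 measured acinar genes (vertical axis). Black points use all 5 arrays, with the 95% interval from limma; triangles leave out Flattop-negative replicate 1 and squares replicate 2. For Ctrb1 the triangle is at -2.73 and the square at 0.30, while for Cela3b both lie below 0.

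The lead of Flattop-negative replicate 2 was then set beside all genes. It had the highest signal of the 5 arrays for 5 of the 9 acinar genes and for 31.3% of all genes. It led every other array by at least 1 log2 unit for 2 of the 9, Ctrb1 and Cpa1, and for 1.34% of all genes. Among 26 measured genes of a second list of acinar secreted proteins, 16 were highest on that array and 1 led by at least 1 log2 unit. That gene was Try5, a trypsinogen, at 4.44, 4.08 and 4.15 on the positive arrays and at 4.57 and 6.42 on the negative arrays. Trypsinogen genes are near-identical copies, so the assignment of this signal to Try5 is uncertain. Like Try5, all genes named here from the other lists beyond the 3 brightest of each were chosen after their values were seen.

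Most of the second list was low too. Of its 26 genes 4 exceeded the floor on all 5 arrays, against 0 of the 6 enzymes measured above, and 15 stayed below it on all 5, among them Amy1, Sycn and Prss2. With limma 0 passed, and 1, Clps, had an unadjusted p under 0.05, lower in the positive arrays, against 5.37% of all genes in that direction. As deposited, 22 of 26 lay lower in the positive arrays, against 59.2% of all genes and 937 of the 1027 olfactory receptor genes. The median difference was -0.45, against -0.10 over all genes and -0.27 over the olfactory receptor genes. It was -0.24 without Flattop-negative replicate 2, and -0.15 with 17 of 26 lower when arrays were centred on the olfactory receptor median. Under that centring 5737 of 19938 genes and 458 of the 1027 olfactory receptor genes lay lower. Clps, the colipase that lets pancreatic lipase work in bile, was at 5.27, 5.02 and 5.40 on the positive and at 5.73 and 6.54 on the negative arrays, without overlap (difference -0.91; limma adjusted p = 0.308). Without Flattop-negative replicate 2 its difference was -0.50. Ctrc, which processes other zymogens, was at 5.58 on that array and at 4.35 to 4.67 on the others. Pla2g1b, the secreted phospholipase, was about as high on both negative arrays (5.21 and 5.14), above 4.09, 4.71 and 4.86.

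Of the 4 brightest genes of the second list, Clps and Cela2a were highest on Flattop-negative replicate 2, while Rnase1 and Ctrl were not. Cela2a, a further elastase, was at 5.32, 5.57 and 5.26 on the positive and at 5.62 and 5.90 on the negative arrays, without overlap and 0.81 to 1.14 log2 units above the floor throughout. Rnase1, a secreted ribonuclease that endothelial cells also make, was at 6.84, 5.01 and 9.04 on the positive arrays and at 7.65 and 7.40 on the negative arrays. Ctrl, a chymotrypsin-like protease, was at 5.88, 6.65 and 5.02 against 5.87 and 5.57. In both the spread within the positive group exceeded the difference between groups, -0.56 for Rnase1 and 0.13 for Ctrl. Of the 6 Reg genes, which acinar and stressed islet cells make, 5 stayed below the floor on all arrays, Reg1 and Reg3d among them. Reg3b was the exception, at 3.16, 4.06 and 9.22 on the positive and at 4.20 and 7.14 on the negative arrays. Its highest array was Flattop-positive replicate 3, where Ctrb1 was at 4.51.

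**Figure D3:**
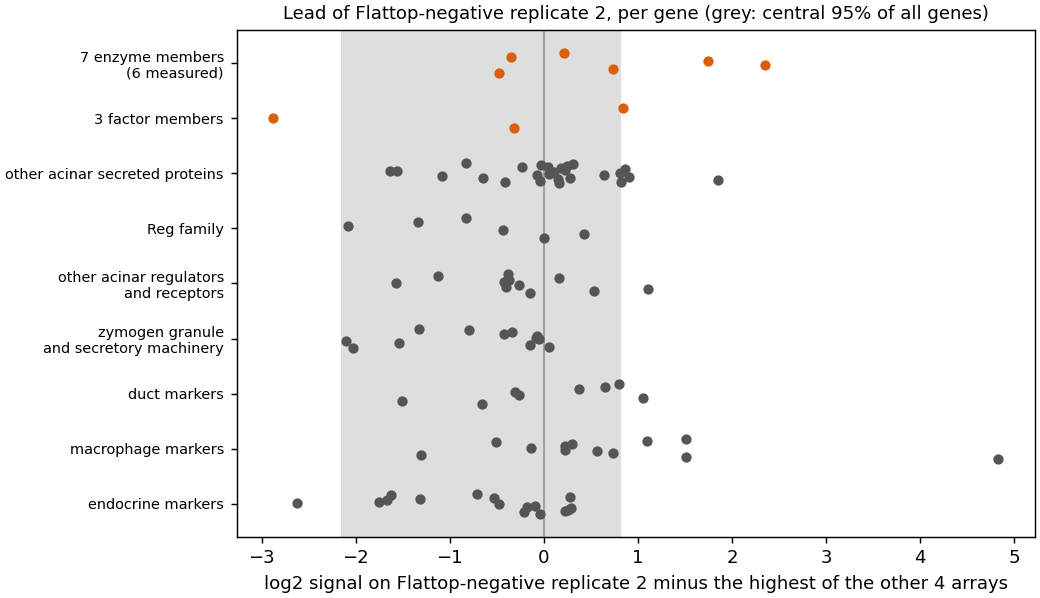
Log2 signal on Flattop-negative replicate 2 minus the highest of the other 4 arrays (horizontal axis), with 1 point per gene, for the acinar enzymes and factors (orange) and the other gene lists (dark grey), by row. The grey band holds the central 95% of all genes, from -2.15 to 0.82; Ctrb1 (2.35) and Cpa1 (1.74) lie to its right and Bhlha15 (-2.88) to its left.

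Of the other regulators and receptors of acinar cells, 8 of 11 exceeded the floor on all 5 arrays, against 10092 of 19938 genes. Nr5a2, Cckar and Aqp12 did not. Xbp1, the factor of the unfolded protein response, was at 9.88, 9.48 and 9.51 on the positive and at 8.20 and 9.48 on the negative arrays. Tcf12, an E-protein of the kind that partners Ptf1a, was at 6.34 to 7.92, and Chrm3, the acetylcholine receptor of acinar and β-cells, at 6.26 to 7.37. On Flattop-negative replicate 2, Tcf12, Chrm3, Rbpj and Cckar were at their lowest, while Gata6, Gata4 and Chrm1 were at their highest. Gata6, a factor of pancreas development, was at 6.54, 6.52 and 7.09 on the positive and at 6.84 and 8.20 on the negative arrays. With limma 0 of the 11 passed, 0 had an unadjusted p under 0.05, and the median difference was -0.05.

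Genes of the secretory machinery lay mainly higher in the positive arrays where they were expressed, for 7 of the 8 above the floor on all 5 arrays, against 7278 of 12261 genes with a mean above the floor. Of 12 measured, 0 passed in limma. At an unadjusted p under 0.05 there were 4, Rab3d, Vamp8, Copz2 and Tmed6, all higher in the positive arrays, against 8.48% of all genes in that direction and 1683 of the 12261 above the floor on average. The median difference over the 12 was 0.31, against -0.10 over all genes. Over the 8 with a mean above the floor it was 0.85, against 0.13 over all such genes. Without Flattop-negative replicates 1 and 2 in turn, the median over the 12 was 0.03 and 0.09, against -0.08 and -0.07 over all genes. Of the 12 genes 3 were below the floor on all 5 arrays, among them Gjb1, which encodes the gap junction protein connexin 32, and Atp2c2, a secretory pathway calcium pump.

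Rab3d, a GTPase of zymogen granules and a known target of Bhlha15, was at 8.45, 8.26 and 7.84 on the positive arrays and at 6.41 and 6.42 on the negative arrays. The groups did not overlap, with a difference of 1.77, or 3.41-fold (95% interval 1.16 to 2.38; limma adjusted p = 0.198). The difference was 1.76 and 1.78 without each negative array in turn. Rab3d was thus as low on Flattop-negative replicate 1 as on replicate 2, while Bhlha15 was at 7.16 and 5.62 there.

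Vamp8, a membrane fusion protein of exocytosis, was at 9.53, 9.27 and 9.70 against 6.61 and 8.16, with a difference of 2.11 (limma adjusted p = 0.224). Without Flattop-negative replicate 2 it was 2.89 and passed (limma adjusted p = 0.0412), with the lone negative array assumed to vary like the positive group; without replicate 1 it was 1.34 (limma adjusted p = 0.0988). It was the only gene of the 12 to pass without replicate 2, where 434 of all genes passed. Copz2, a coat subunit of Golgi vesicles, was at 8.18, 7.50 and 8.08 against 6.57 and 7.38, and Tmed6, a cargo receptor of the early secretory pathway, at 6.94, 6.02 and 6.11 against 5.42 and 5.62. Their differences were 0.95 and 0.84 (limma adjusted p = 0.334 and 0.357), that of Copz2 was 0.54 without Flattop-negative replicate 1, and that of Tmed6 was 0.55 without Flattop-positive replicate 1.

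**Figure D4:**
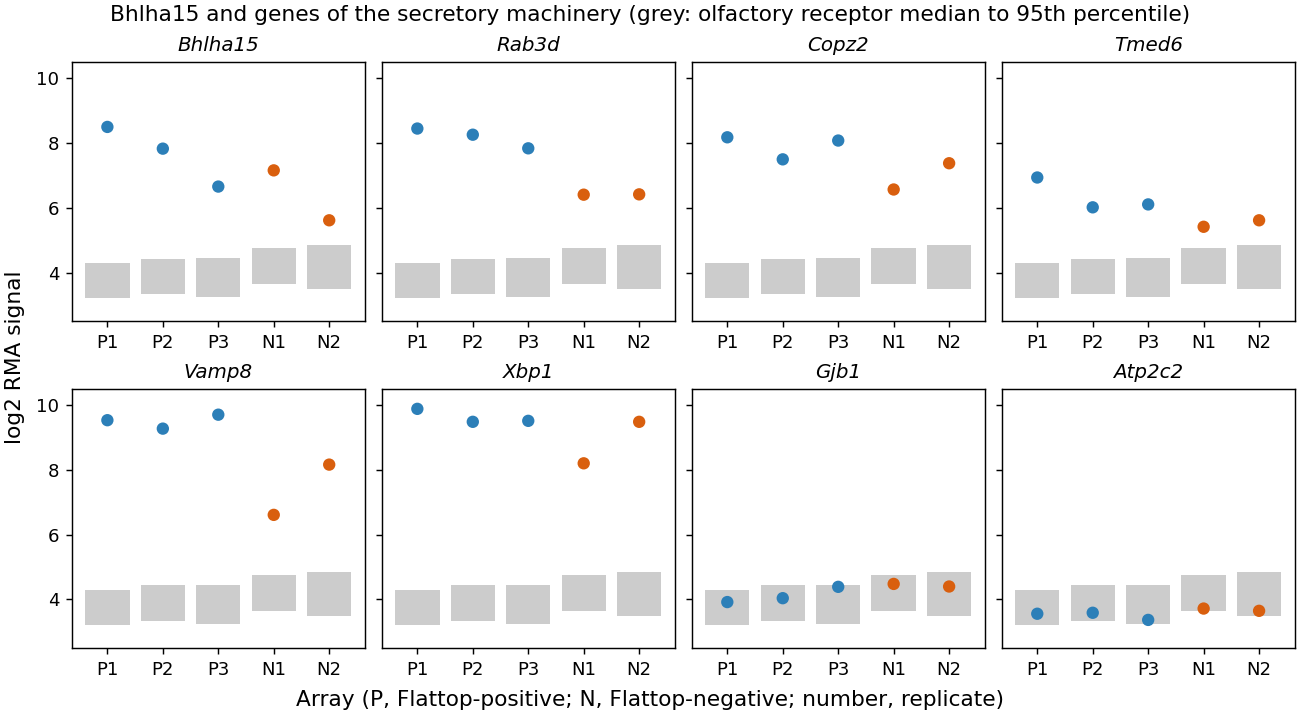
Log2 RMA signal (vertical axis) of Bhlha15, 6 genes of the secretory machinery and the factor Xbp1 on each of the 5 arrays (horizontal axis; P1 to P3, Flattop-positive, blue; N1 and N2, Flattop-negative, orange), with grey boxes from the median to the 95th percentile of olfactory receptor genes. Rab3d separates the groups (7.84 or more against 6.42 or less), Bhlha15 does not, and Gjb1 and Atp2c2 lie within the boxes.

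Some markers of other cells were also highest on Flattop-negative replicate 2. They were 9 of 12 measured macrophage genes and 4 of 8 measured duct genes, against 31.3% of all genes. Of 12 measured macrophage genes 10 exceeded the floor there, against 4 to 7 on the other arrays, and their mean log2 signal was 5.59 against 4.39 to 4.55. Lyz2, the macrophage lysozyme, was at 9.41 on that array and at most at 4.58 on the others. The macrophage genes with the highest mean did not all follow. C1qa, a complement subunit, was at 7.14, 6.98 and 6.02 on the positive and at 4.95 and 5.84 on the negative arrays, Cd68 was at 5.21 to 6.59 and Csf1r at 4.98 to 5.73, while Adgre1 and Aif1 stayed below the floor on all 5. Of 8 measured duct genes 7 exceeded the floor on that array, against 3 to 7 elsewhere, and their mean was 6.06 against 4.96 to 5.69. Sox9, a factor of duct cells, was at 7.23 there and at most at 6.18 on the others, Ambp was at 8.12 against at most 7.48, and Krt7, a keratin, was at 8.37 against 6.76 to 9.88, while the duct channel gene Cftr stayed below the floor on all 5. Krt19 and Muc1 were highest on Flattop-positive replicates 2 and 3, at 5.57 and 6.54, against 4.91 and 6.23 on Flattop-negative replicate 2. The part of these cells in the acinar signals was not tested.

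Over the 5 arrays, the mean centred profile of the 7 acinar genes that exceeded the floor anywhere was -0.27, -0.09 and -0.23 on the positive and -0.02 and 0.60 on the negative arrays. The 7 include Bhlha15, which was highest on Flattop-positive replicate 1 and lowest on Flattop-negative replicate 2. The mean is thus a blend and not the profile of the enzymes alone. The 5 genes with the smallest root mean square distance to it, among 12201 genes above the floor on average and outside the lists, were H1f7, Wfdc21, Aplp2, Gm10125 and Tcerg1l, at 0.030 to 0.042 log2 units. Each was highest on Flattop-negative replicate 2, H1f7 at 5.72 against 4.88 to 5.12 and Aplp2, an amyloid precursor-like protein, at 7.39 against 6.52 to 6.71. With 5 arrays many genes share such an order, and this likeness is a description only.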

How the data were processed

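Gene expression was measured on 5 arrays, 1 per pool of sorted mouse islet cells. The deposited values are log2 signals for 35556 probe sets, which the authors computed by RMA (background correction, normalisation between arrays, probe summary). The submitters' processing notes name Affymetrix Expression Console, version 1.3.0.187. The build and detection calls were not given in the sources used here. The platform annotation gave 21789 probe sets a single gene symbol, 1621 several and 12146 no listed gene; the first kind covered 19938 genes, the brightest probe set standing for each. All 9 measured acinar genes had the same symbol in the GRCm38.p6 gene table. Arrays give no counts, and their number limits the precision.

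Groups were compared with limma 3.58.1 (R 4.3.3), group as the only term, by two-sided tests, and p-values were adjusted over all genes by the Benjamini-Hochberg method. The fit was tested on simulated data. An exact permutation test of 3 against 2 arrays was not used. The acinar genes and the lists were chosen with earlier results of these data known. The plan was to name besides them the 3 brightest genes of each list, genes past the adjusted threshold, the 5 of nearest profile and Cfap126. Further genes named from the lists were chosen after their values were seen. Alternatives left out single arrays or dim genes, blocked on the replicate number, changed the normalisation, floor, variance model or array weights, or averaged probe sets. Centring on the olfactory receptor median was chosen after seeing the data. Python code used pandas 2.3.3 and matplotlib 3.10.9.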

Additional observations from a re-analysis of the deposited data

How the results depend on the processing

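Over 14 alternatives to the fit, 0 acinar genes passed the adjusted threshold in limma, and 0 of all genes passed in 13 of them; without Flattop-negative replicate 2, 434 of all genes did, so the range over arrays left out was 0 to 434. The median difference over the acinar genes, -0.55, ran from -0.77 to -0.28 with each array left out. It was -0.78 with dim genes left out, which kept 6 of the 9, and -0.24 with arrays centred on the olfactory receptor median, where the median of all genes moved from -0.10 to 0.20. Signs turned for Cela1 (0.09, and -0.95 without replicate 1) and Ctrb1 (0.30, and -2.73 without replicate 1) without Flattop-negative replicate 2. Cpb1 (-0.30 to 0.02 with each array left out) turned without Flattop-positive replicate 1 (0.01), without Flattop-negative replicate 1 (0.02), with quantile normalisation repeated (0.07), arrays centred on their medians (0.04), cyclic loess (0.10) and olfactory receptor centring (0.16), and Ptf1a under the last (0.02); these lie at the floor, and the cause was not tested. The counts above the floor moved with its definition. At the 90th percentile they were 6 and 7 on Flattop-positive replicates 1 and 3 and 5 on Flattop-negative replicate 1. At the 99th percentile they were 1 on each Flattop-positive array and 2 on Flattop-negative replicate 2. With 167 vomeronasal receptor genes as the floor they were 7 on each Flattop-positive array, 5 on Flattop-negative replicate 1 and 8 on replicate 2. Only Cpb1, the lowest of the 9 on replicate 2, did not exceed that floor there, so Cel did. With the replicate number as a block the median was -0.58, 0 acinar genes passed, and Bhlha15 had 1.77 (limma adjusted p = 0.55). Same-numbered arrays had deviations from their group means that correlated at 0.182 and -0.137, so the numbers are not taken as pairs.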
